A study of Mus musculus with 2 samples.

Results

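The potassium channel genes of the mouse kidney were taken as all protein-coding genes whose symbol begins with Kcn. The rule gave 94 genes of 43346 in the tables, or of 21474 protein-coding genes. The tissue was whole kidney of C57BL/6J mice, an inbred strain, at 8 weeks of age. It was measured by RNA sequencing in 2 libraries of 1 group, called replicate 1 and replicate 2, with male and female littermates pooled in each. Polyadenylated RNA depleted of ribosomal RNA was read in paired, strand-specific runs with spike-in RNA added, and both libraries carry 1 donor label and a health state given as unknown. No treatment, genotype or second group was compared, so the values describe 1 group of libraries. Markers of other tissues were also read in these libraries, as given below. SDs measure the spread between these libraries only, which may be technical. The p-values set the counts of 1 library against the other under counting error alone and hold no estimate of that spread.

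Potassium channels are membrane pores that let potassium leave or enter cells along its gradient. In the nephron they set the membrane voltage that drives transport, return potassium taken up by the sodium pump, and secrete potassium into the urine. The gene names fall into classes. Inward rectifiers (Kcnj) and two-pore-domain channels (Kcnk) lack a voltage sensor. Voltage-gated channels (Kcna, Kcnb, Kcnc, Kcnd, Kcnh and Kcnq) open on depolarization, and modulatory subunits (Kcnf, Kcng, Kcns and Kcnv) join them without forming working channels alone. Another class opens with calcium, sodium or alkaline pH (Kcnma, Kcnn, Kcnt and Kcnu), and accessory proteins (Kcnab, Kcne, Kcnip, Kcnmb and Kcnrg) form no pore.

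The selectivity filter, the part of the pore that admits potassium and not sodium, is encoded by a short run of codons shared by the family. The windows below show it in 9 of the 11 pore-forming members that reached a mean of 5 TPM (transcript abundance corrected for length and scaled to one total in every library). They were read 5′ to 3′ from GENCODE M21 coding sequences on GRCm38, 45 bases each, and capitals mark the 15-base filter word.
Kcnj15: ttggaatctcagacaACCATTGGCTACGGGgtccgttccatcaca
Kcnj16: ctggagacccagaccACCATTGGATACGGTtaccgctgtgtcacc
Kcnj1: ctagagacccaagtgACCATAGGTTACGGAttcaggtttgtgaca
Kcnj8: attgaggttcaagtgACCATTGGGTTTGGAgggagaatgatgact
Kcnk1: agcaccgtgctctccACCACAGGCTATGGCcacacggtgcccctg
Kcnk5, first word: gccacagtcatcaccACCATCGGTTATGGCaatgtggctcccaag
Kcnk5, second word: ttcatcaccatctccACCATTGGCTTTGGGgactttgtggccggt
Kcnk3, first word: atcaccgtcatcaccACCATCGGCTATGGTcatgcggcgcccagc
Kcnk3, second word: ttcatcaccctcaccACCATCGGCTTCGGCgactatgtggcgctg
Kcnq1: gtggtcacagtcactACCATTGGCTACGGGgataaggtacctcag
Kcnt1: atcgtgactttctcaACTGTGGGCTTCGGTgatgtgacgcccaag
The word searched was ACN, any codon, GGN, then TAT, TAC, TTT or TTC, then GGN, in frame and on the coding strand. That is a threonine codon, any codon, a glycine codon, a tyrosine or phenylalanine codon, and a glycine codon. The fourth codon was TAT or TAC in 7 of the 11 windows. It was TTT or TTC in the other 4, which belong to Kcnj8, Kcnt1 and the second words of Kcnk5 and Kcnk3. The 11 windows held 10 distinct words, since the inward rectifier Kcnj15 and the voltage-gated Kcnq1 share theirs base for base. The first words of Kcnk1, Kcnk5 and Kcnk3 are each split by an intron, so that their 15 bases span 29212, 1393 and 33306 bases of the genome.

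Of the 77 pore-forming and modulatory members, 66 held the word in their longest complete coding sequence, against 0 of the 17 accessory members. Over all 21338 protein-coding genes searched, 1.05% held it. The 11 that lacked it were 7 of the Kcnh genes, Kcnn1, Kcnn2, Kcnn3 and Kcnj14. With a serine codon (TCN, AGT or AGC) also allowed in first place, a search added after the first result was seen, all 77 held a word, as did 2.63% of all genes. All 14 two-pore-domain genes held the word, and 11 of them held it at 2 places. The 3 with it at 1 place were Kcnk1, Kcnk6 and Kcnk7.

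Few of the family's genes were abundant. A gene was called detected at 1 TPM or more in both libraries, and 30 of 94 members were (31.9%), against 57.2% of protein-coding genes. The median of their mean levels was 0.47 TPM, against 2.80 TPM over protein-coding genes. A further 4 reached 1 TPM in 1 library only (Kcnma1, Kcna5, Kcnn3 and Kcnmb4), and 60 were below it in both. Kcnn2 lay just above the threshold, at 1.14 and 1.05 TPM in replicates 1 and 2, and Kcnma1 just below, at 1.58 and 0.96 TPM. A mean of 10 TPM was reached by 10 members and a mean of 100 TPM by 2. In all, 29 members stayed below 0.1 TPM in both libraries. In a whole organ, few cells with a gene and little RNA per cell cannot be told apart.

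**Figure D1:**
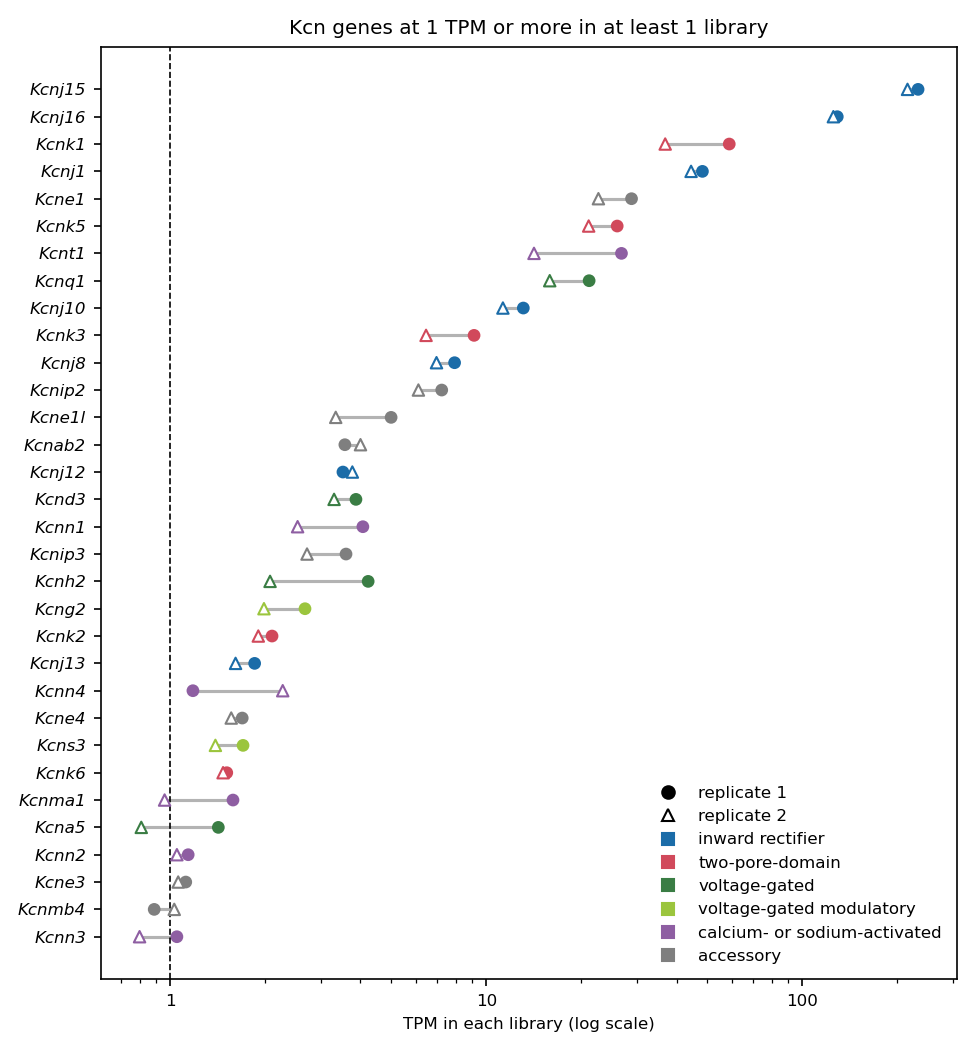
TPM of the Kcn genes reported here that reached 1 TPM in at least 1 library, on a log axis. Filled circles are replicate 1, open triangles replicate 2, the colour gives the class, and the dashed line is 1 TPM. Kcnj15 and Kcnj16 stand above 100 TPM in both libraries, and most other members lie below 10 TPM.

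The summed level of all members was 686.34 TPM in replicate 1 and 592.19 TPM in replicate 2, a mean of 639 ± 66.6 (SD, n = 2). That was 0.0686% and 0.0592% of all TPM. Kcnj15 and Kcnj16 together held 52.7% and 57.5% of the sum. The 5 highest members held 73.8% ± 1.85 (SD, n = 2). By class, inward rectifiers held 63.9% and 69.5% of the family's TPM, two-pore-domain channels 14.2% and 11.5%, and accessory proteins 7.99% and 7.53%. Voltage-gated channels, the class with the most genes, held 7.55% and 6.78%. Modulatory subunits held under 1% in each library, at 0.970% and 0.881%.

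**Figure D2:**
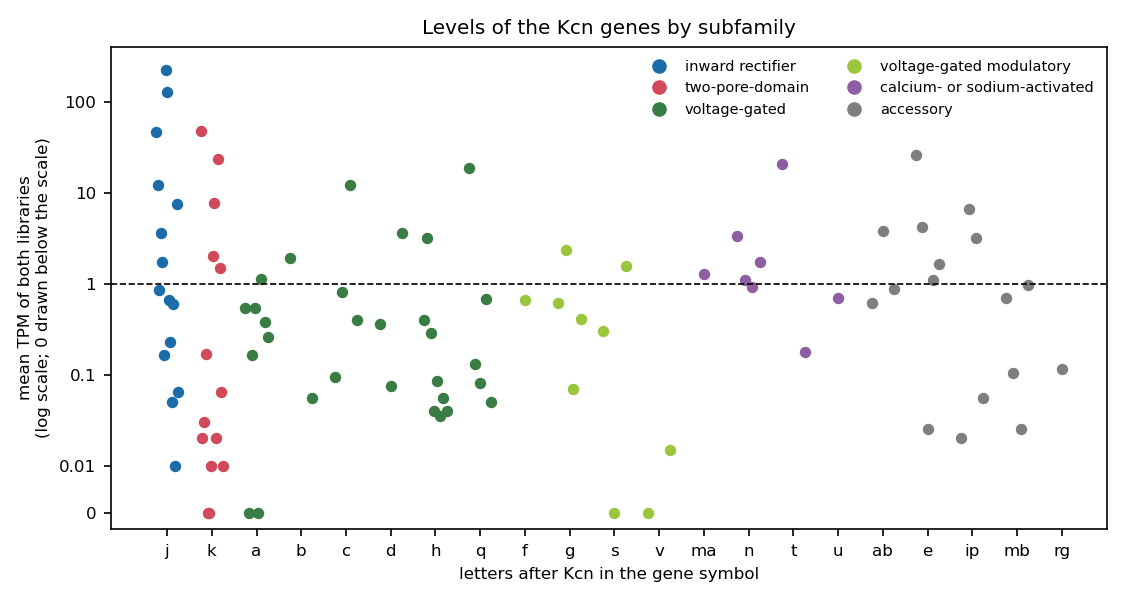
Mean TPM of both libraries for all 94 Kcn genes, on a log axis, arranged by the letters after Kcn and coloured by class, with genes at a mean of 0 drawn below the scale. The dashed line is 1 TPM. In most subfamilies a single gene or a few stand high above the rest.

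Among the inward rectifiers, 7 of 15 were detected. Kcnj15, which encodes Kir4.2, a basolateral channel of the proximal tubule, stood at 232.44 and 215.21 TPM (ENSMUSG00000062609.9, GRCm38 chromosome 16, 95257558 to 95300260, plus strand). Its mean of 224 ± 12.2 TPM (SD, n = 2) ranked 532 among protein-coding genes. Kcnj16, whose product Kir5.1 joins Kir4.1 or Kir4.2 in mixed channels, stood at 129.01 and 125.40 TPM (ENSMUSG00000051497.11, chromosome 11, 110968033 to 111027968, plus strand). Its mean was 127 ± 2.55 TPM (SD, n = 2), and the ranges of these genes over the libraries did not overlap.

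Kcnj1 encodes ROMK, the apical channel that recycles potassium in the thick ascending limb and secretes it in the collecting duct. It stood at 48.30 and 44.47 TPM (ENSMUSG00000041248.8, chromosome 9, 32372493 to 32399197, plus strand). Kcnj10, which encodes Kir4.1 of the distal convoluted tubule's basolateral membrane, stood at 13.10 and 11.29 TPM (ENSMUSG00000044708.5, chromosome 1, 172341210 to 172374085, plus strand). Its partner Kcnj16 was thus far more abundant than Kcnj10 in both libraries. Kcnj8, the Kir6.1 pore of the ATP-sensitive channel of blood vessels, stood at 7.94 and 6.96 TPM (ENSMUSG00000030247.7, chromosome 6, 142564837 to 142571614, minus strand). Abcc9, the sulfonylurea receptor that pairs with it there, stood at 2.92 and 3.44 TPM. Kcnj12 (3.52 and 3.77 TPM) and Kcnj13 (1.85 and 1.61 TPM) were lower, and the other 8 inward rectifiers had means from 0.010 to 0.850 TPM.

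Of the two-pore-domain channels, which carry background potassium currents, 5 of 14 were detected. Kcnk1, which encodes TWIK-1, stood at 58.73 and 36.83 TPM, a mean of 47.8 ± 15.5 (SD, n = 2; ENSMUSG00000033998.8, chromosome 8, 125995170 to 126030685, plus strand). Its range contained that of Kcnj1, so the order of these genes could not be told. Kcnk5, the alkali-activated TASK-2 of the proximal tubule, stood at 25.96 and 21.09 TPM (ENSMUSG00000023243.8, chromosome 14, 20140057 to 20181809, minus strand). Kcnk3, the acid-sensitive TASK-1, stood at 9.15 and 6.45 TPM (ENSMUSG00000049265.6, chromosome 5, 30588170 to 30625271, plus strand). Kcnk2 (2.10 and 1.90 TPM) and Kcnk6 (1.51 and 1.47 TPM) were detected at lower levels, and 8 of the 14 were below 0.1 TPM in both libraries.

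Of the 30 voltage-gated genes, 5 were detected, each the only detected gene of its subfamily. Kcnq1, whose product forms a slow current with the Kcne1 protein, stood at 21.16 and 15.88 TPM (ENSMUSG00000009545.10, chromosome 7, 143106362 to 143427042, plus strand). Kcnd3, which encodes a transient A-type channel, stood at 3.87 and 3.30 TPM, or at 8.14 and 4.78 by posterior mean TPM, a mean of 6.46 that passes 5 TPM. Kcnh2, the mouse ERG channel, stood at 4.23 and 2.07 TPM. None of the 8 Kcna genes was detected, and the highest, Kcna5, stood at 1.42 and 0.81 TPM.

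Of the 10 modulatory subunits, Kcng2 (2.67 and 1.98 TPM) and Kcns3 (1.70 and 1.39 TPM) were detected. Kcnf1 stood at 0.66 TPM in both libraries, and Kcnv2, the higher Kcnv gene, at 0.02 and 0.01 TPM. In the class opened by calcium or sodium, 4 of 8 were detected. Kcnt1, the sodium-activated channel Slack, was the highest at 26.78 and 14.16 TPM (ENSMUSG00000058740.10, chromosome 2, 25863734 to 25918273, plus strand). Its ratio of TPM between libraries, 0.529, was the farthest from 1 among the 13 members of 5 TPM or more. By scaled counts its ratio was 0.714, and Kcnk1, at 0.708, lay farther from 1. Kcnn1, a small-conductance calcium-activated channel, stood at 4.07 and 2.53 TPM. Kcnma1, the pore of the large-conductance BK channel, fell on either side of the threshold, and Kcnu1, known from sperm, stood at 0.69 TPM in both.

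Of the 17 accessory genes, 7 were detected. Kcne1, the Kcnq1 partner minK, stood at 28.82 and 22.64 TPM (ENSMUSG00000039639.6, chromosome 16, 92345982 to 92359468, minus strand). By deposited TPM it was the higher of this channel pair in each library. By the deposited posterior mean TPM the ranges overlapped, with Kcne1 at 28.71 and 22.56 and Kcnq1 at 27.26 and 25.67, so their order was not settled. Kcnip2, a calcium-binding partner of Kcnd channels, stood at 7.23 and 6.10 TPM (ENSMUSG00000025221.11, chromosome 19, 45791839 to 45816061, minus strand). Kcnab2, which encodes a cytoplasmic beta subunit, stood at 3.57 and 4.0 TPM. No Kcnmb gene, the beta subunits of BK, was detected, and the highest, Kcnmb4, stood at 0.89 and 1.03 TPM. Kcnrg, a soluble regulator of voltage-gated channels, stood at 0.11 and 0.12 TPM.

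Only part of the order of levels was resolved. Of the 12 neighbouring pairs among the 13 members of 5 TPM or more, 5 had ranges that did not overlap. Among them were the breaks between Kcnj15 and Kcnj16, Kcnj16 and Kcnk1, Kcnj1 and Kcne1, and Kcnq1 and Kcnj10. Over all 30 detected members, 22 of 29 neighbouring pairs overlapped.

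At the other end, 5 members had 0 expected counts in both libraries. They were the voltage-gated Kcna4 and Kcna10, the two-pore-domain Kcnk15 and Kcnk16, and the modulatory Kcns2. A count of 0 allows up to 3 counts per library, which is 0.0446 CPM (counts scaled to depth) in replicate 1 and 0.0344 CPM in replicate 2. These limits cover counting error only. In all, 12 members had 3 counts or fewer in each library.

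The top of the order rested on how transcripts were weighed. The transcript of Kcnj15 with the highest share of its TPM was Kcnj15-210, at 40.96% and 37.97%. It is 784 nt long with an incomplete coding sequence, and it held 8.32% and 7.14% of the gene's counts. By counts, the leading transcript was Kcnj15-206, at 27.5% and 34.1%. Over transcripts with a complete coding sequence, an alternative chosen after the data were seen, Kcnj15 stood at 126.15 and 128.15 TPM. Its mean was then 127 ± 1.41 TPM (SD, n = 2), against 127 ± 2.55 for Kcnj16, so the gap between these genes was gone.

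Kcnt1 moved likewise. A retained-intron transcript of 532 nt, Kcnt1-209, held 37.01% and 30.1% of its TPM on 174 and 107 counts. Over complete coding transcripts Kcnt1 stood at 10.68 and 6.98 TPM. The minor transcript of Kcne1, Kcne1-202 of 601 nt, held 45.07% and 45.66% of TPM and 9.93% and 10.4% of counts. Kcnj1 gave the same shares on both measures. Kcnj1-201 held 86.78% and 80.44% of its TPM and Kcnj1-202, which starts 21.492 kb downstream, held 13.22% and 19.56%. Of the 13 members of 5 TPM or more, 5 had a single transcript in the tables.

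**Figure D3:**
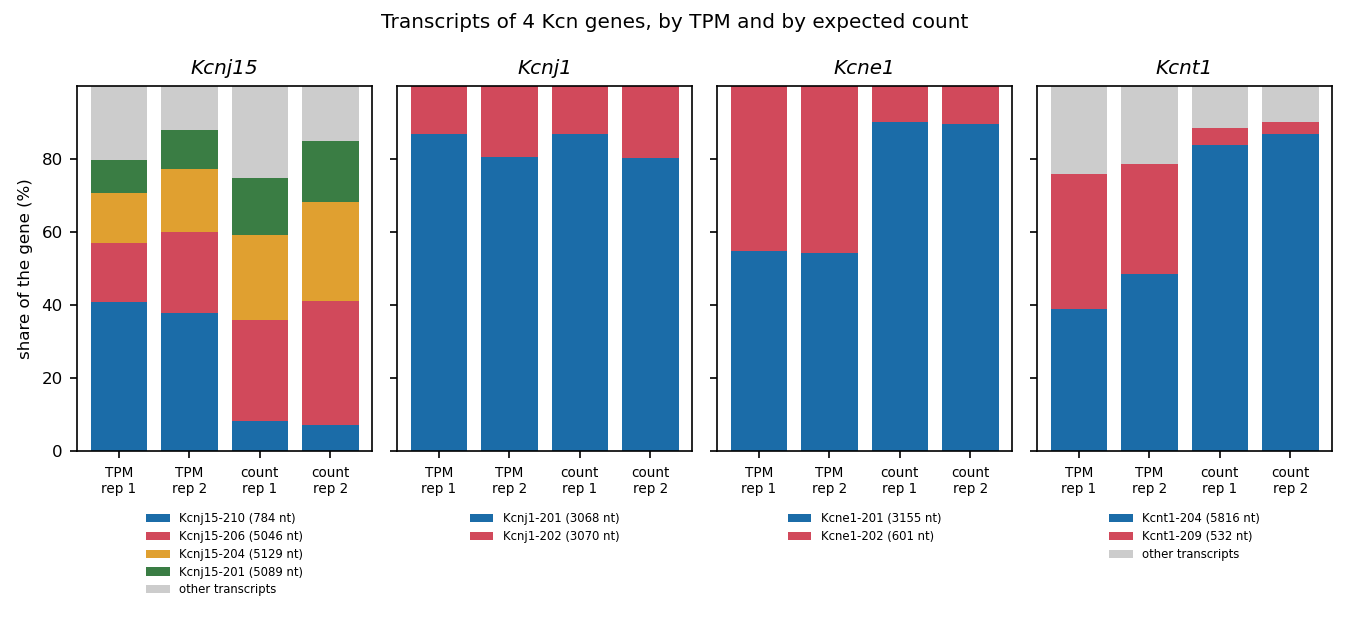
Share of each transcript in 4 Kcn genes, in percent of the gene's TPM and of its expected counts, with replicates 1 and 2 beside each other. The short transcripts Kcnj15-210, Kcne1-202 and Kcnt1-209 take a far smaller share of counts than of TPM, while both Kcnj1 transcripts keep theirs.

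Kcnj16 has 4 promoter windows in RefSeq (GRCm38.p6), each from 250 bases before to 50 after a start. Transcripts that start in the first window held 100% and 99.14% of its TPM. That window, chr11:110967783-110968082 on the plus strand, is printed because nearly all of the gene's RNA was assigned to it.
Kcnj16, first window: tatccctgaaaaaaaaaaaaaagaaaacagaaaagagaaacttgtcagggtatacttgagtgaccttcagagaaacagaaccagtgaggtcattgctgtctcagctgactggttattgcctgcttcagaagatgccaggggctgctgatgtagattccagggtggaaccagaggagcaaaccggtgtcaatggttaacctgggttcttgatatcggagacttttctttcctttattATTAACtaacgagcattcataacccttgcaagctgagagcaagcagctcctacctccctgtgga
Capitals mark GTTAAT or its reverse complement ATTAAC, a word of the binding site of HNF1, a factor of tubule cells. The word was chosen after the levels were known. It occurred at 1 place there, ending 8 bases before the start, at 0 places in the other 3 windows, and in 7.10% of all 32851 windows. A match is a description of letters and not of binding. RefSeq windows were found for 69 of the 94 members.

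Several members lie beside each other in the genome at very different levels. Within 100 kb there were 9 pairs of members, and in none were both detected, while in 5 of them 1 was. Of all members 31.9% were detected, and these counts were not set against other pairs drawn from the family. Some of the 4 pairs with no member detected were closer, with means 1.43-fold apart for Kcna1 and Kcna6 and 3.27-fold for Kcna3 and Kcna2. Kcnj16 lies 38.2 kb from Kcnj2, a strong inward rectifier of muscle and heart, which stood at 0.56 and 0.75 TPM, so the means differed 194-fold. Kcnj1 lies 28.1 kb from Kcnj5, which stood at 0.64 and 0.55 TPM, a 78.0-fold difference of means. Kcnj10 lies 11.9 kb from Kcnj9 at 0.08 and 0.05 TPM, which is 188-fold but rests on 16 and 10 counts of Kcnj9. Kcne1 neighbours Kcne2, with 2 counts in each library, and Kcnk5 neighbours Kcnk16, with 0 counts.

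**Figure D4:**
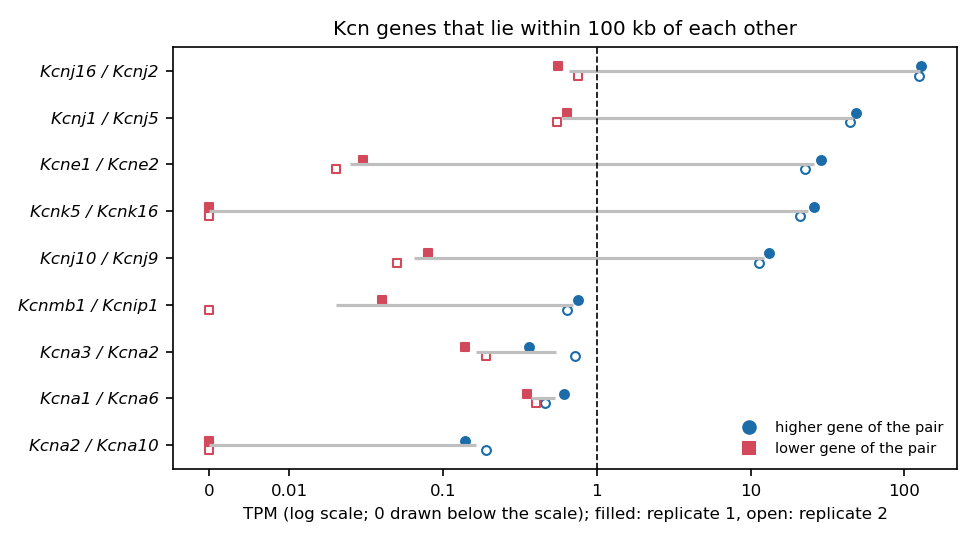
TPM of the 9 pairs of Kcn genes within 100 kb of each other, on a log axis, with the higher gene of a pair as circles and the lower as squares. Values of 0 are drawn below the scale and the dashed line is 1 TPM. In 5 pairs the higher gene lies above 10 TPM and the lower below 1 TPM.

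The libraries held 67252609 and 87330097 expected counts over genes. Kidney markers were detected in both, with the proximal tubule list at 8065 and 5926 summed TPM. Of the distal convoluted tubule markers, Slc12a3 stood at 511.72 and 246.95 TPM and Trpm6 at 1.45 and 1.24 TPM. All 5 markers of the brown fat list were detected, with sums of 1720.52 and 1077.13 TPM. The part of other tissues in the levels of the members was not tested. Some markers of other tissues differed widely. The 8 skeletal muscle markers summed to 2.92 and 814.63 TPM and the 7 lymphocyte markers to 4.96 and 42.02 TPM, and every gene of both lists was higher in replicate 2 by the test below. No gene of these lists was at 0 in either library. Of 9 adrenal markers, 5 were higher in replicate 1 and 3 in replicate 2, with sums of 40.50 and 11.59 TPM. Of 7 nerve markers 5 were higher in replicate 2 and 1 in replicate 1, and of 5 smooth muscle markers 2 were higher in replicate 1.

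Counts of each gene were compared between the libraries by a two-sided exact binomial test after TMM scaling (a trimmed mean of log ratios between libraries). A gene was called at a Benjamini-Hochberg adjusted p below 0.05 and a ratio of at least 2-fold in either direction. Of the 75 members with 10 or more counts in sum, 7 were called (9.33%), against 7.77% of all 18723 genes tested. All 7 were higher in replicate 2, as were 5.37% of all genes tested, and 0 were higher in replicate 1, against 2.4%. The shares over tested protein-coding genes were 6.52% in either direction and 4.98% higher in replicate 2. With TMM scaling the members' share was thus near the background. With spike-in scaling it was above the background, at 21 of 75 members against 14.9% of all genes tested. Among protein-coding genes the share called with TMM scaling was 1.47% for detected genes and 23.1% for tested genes below 1 TPM in a library. Of the 7 called members 1 was detected.

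That one was Kcnn4, the intermediate-conductance calcium-activated channel of lymphocytes and red cells. It had 116 counts in replicate 1 and 310 in replicate 2 (1.18 and 2.27 TPM), a ratio of scaled counts of 2.17 (95% exact interval 1.75 to 2.71; exact binomial adjusted p = 6.68e-13). Kcna3, the Kv1.3 channel of T cells, had 34 and 95 counts, a ratio of 2.27. With spike-in scaling neither was called, at ratios of 1.42 for Kcnn4 and 1.48 for Kcna3. In the TMM-scaled counts both differed in the direction of the lymphocyte markers, and the part of those cells in these ratios was not tested.

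The largest ratio among the called members was that of Kcna7, a Kv1 channel known from muscle, with 8 and 116 counts. Its ratio was 11.8 (95% exact interval 5.78 to 27.9; exact binomial adjusted p = 3.59e-20). Kcnc4, the Kv3.4 channel found in skeletal muscle and neurons, had 28 and 128 counts, a ratio of 3.71. Kcnc1, best known from neurons, had 10 and 68 counts, a ratio of 5.52. Kcnk13, a two-pore-domain channel of microglia, had 8 and 48 counts, a ratio of 4.87. The part of the skeletal muscle and nerve markers in these ratios was likewise not tested. None of Kcna7, Kcnc4, Kcnc1 and Kcnk13 reached 1 TPM in either library.

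**Figure D5:**
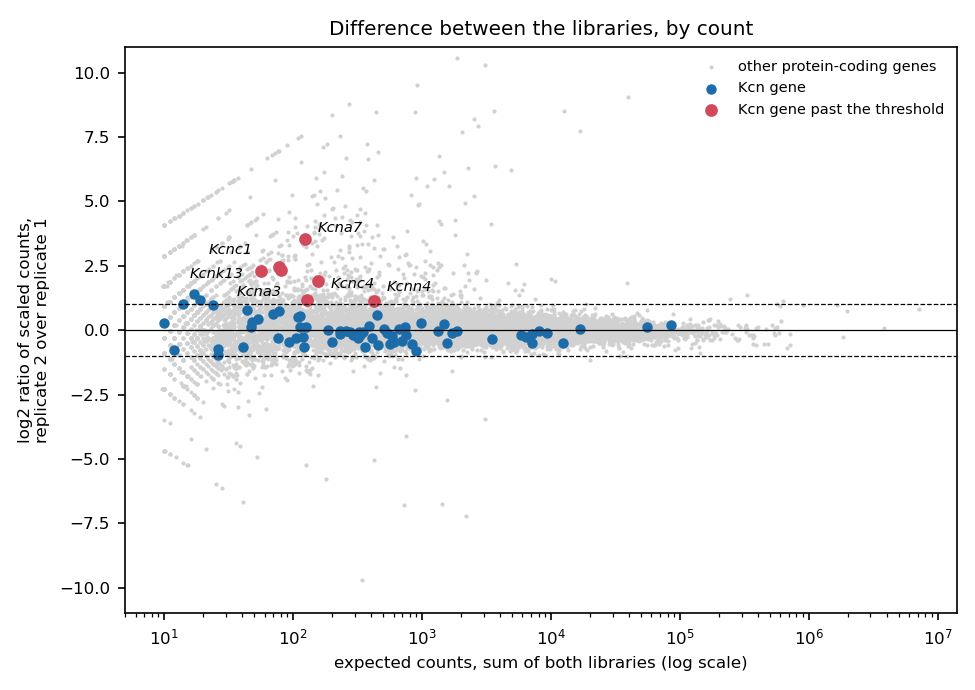
Log2 ratio of scaled counts, replicate 2 over replicate 1, against the summed expected counts (log axis) for the 75 tested Kcn genes over all tested protein-coding genes in grey. Dashed lines mark a 2-fold ratio. The 7 red genes past the threshold all lie on the side of replicate 2 and at low counts, and the abundant Kcn genes lie close to 0.

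The 13 members of 5 TPM or more had ratios of scaled counts from 0.708 (Kcnk1) to 1.14 (Kcnj15), so none passed the 2-fold threshold. With spike-in scaling, Kcnk1 and Kcnt1 passed it, at ratios of 0.462 and 0.466, both higher in replicate 1. At any size of ratio, 10 of the 13 had an adjusted p below 0.05 by the exact binomial test. No share over all genes is given for this, so the count is not a result about these members. At counts this high small ratios pass, as for Kcnj1 at 1.04 (exact binomial adjusted p = 0.0302). Kcnj1 did not pass with DESeq2 size factors as the scaling, at a ratio of 1.03 (exact binomial adjusted p = 0.0742). Kcnk1 had 6606 and 5761 counts, and Kcnj15 had 35555 and 50106. Of the 30 detected members, 20 (66.7%) had a lower scaled count in replicate 2, against 48.5% of detected protein-coding genes. Their median ratio was 0.919, against 1.01 for detected protein-coding genes. On the TPM scale all 13 were lower in replicate 2, as were 72.4% of detected protein-coding genes, and the median log2 ratio of all detected genes on that scale was -0.19. Kcnj15, Kcnj16 and Kcnj1 therefore changed direction with the scale.

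Among 12 proteins that accompany potassium channels but bear other names, 7 were detected, against 57.2% of protein-coding genes. Of 10 tested, 1 was called, against 7.77% of all genes tested. The called gene was Abcc8, the sulfonylurea receptor of beta cells, higher in replicate 1 with 67 and 37 counts. It stood at 0.26 and 0.10 TPM, and 23.1% of tested protein-coding genes below 1 TPM in a library were called. Sgk1, a kinase that raises channel activity under aldosterone, stood at 56.44 and 50.65 TPM, and Amigo1, a membrane partner of voltage-gated channels, at 18.32 and 11.15 TPM. Lrrc26 and Lrrc52, gamma subunits of BK and related channels, stood at 2.35 and 1.80 TPM and at 2.80 and 1.97 TPM. Of 25 genes of potassium and sodium transport in the distal nephron, 24 were detected. Of the 25, 0 were called, which is near the 1.47% of detected protein-coding genes. Slc12a3 lay closest to the 2-fold threshold, with 85186 and 57070 counts, a ratio of scaled counts of 0.544. The gene not detected was Atp12a, a potassium pump of the proton-exchanging kind, at 0.16 TPM in both libraries.

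Expected counts were whole numbers, within 0.005, in both libraries for 27 of the 30 detected members (90%). The share of detected protein-coding genes was 83.4%, so this was not particular to the family. The detected members without whole counts were Kcnj15, Kcnj16 and Kcnt1, at 50105.93, 31933.1 and 3305.24 counts in replicate 2. Exons of 28 members overlap those of another gene, and 2 of these overlaps are on the same strand (Kcnab2 and Kcnk4). Kcnj13, at 1.85 and 1.61 TPM, overlaps 623 bases of Gigyf2 on the opposite strand, a gene at 31.2 and 31.3 TPM. Kcnq1 overlaps 121 bases of the antisense RNA Kcnq1ot1. That RNA had 1136 and 933 counts over its whole length, at 0.25 and 0.15 TPM, against 21.16 and 15.88 TPM for Kcnq1. The labels call the libraries stranded, but whether the counting used strand is not given in the sources used here, so the values of Kcnj13 and Kcnq1 carry that limit.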

How the data were processed

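Adult kidney RNA was measured in 2 libraries of 76-base read pairs from RNA over 200 nt, per the labels. The authors deposited gene and transcript tables on mm10 with annotation M4, with an expected count, TPM and FPKM per the file headers. The deposited posterior SD of each count is a signal value of the quantification, and isoform shares are in percent per the file headers. The aligner is not given in the sources used here. Names came from GENCODE M21 on GRCm38, with a symbol for 42462 of 43346 identifiers (98.0%). Another 5 Kcn symbols belong to noncoding genes and were left out. The 26248 numeric rows, all at 0, and 97 spike-in rows (1.59% and 2.29% of counts) stayed out of library sizes and tests.

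Expected counts were rounded for a per-gene exact binomial test (scipy 1.17.1) with TMM scaling by edgeR 4.0.16 in R 4.3.3, factors 1.03 and 0.974, for genes of 10 or more counts. It compares the reads of 2 libraries, not conditions. It was tested on simulated data that held counting error alone. Such data cannot show how the test behaves where libraries differ beyond counting error. DESeq2 1.42.0 size factors, other thresholds and posterior mean TPM were alternatives. The filter search was planned on protein sequences and was run on coding sequences. Named were members of 5 TPM or more, the highest of each subfamily, those called between libraries, those with 0 counts and those next to the threshold. Neighbours, partners and the remaining genes with 1 library over 1 TPM were named beyond that rule, some after their values were seen. Results for a few members that this rule selects are left out here. Members and lists were chosen with earlier results of these data known. Intervals and zero limits reflect counting error alone, as no molecular identifiers are mentioned. Tables on mm9 were not used here.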

Additional observations from a re-analysis of the deposited data

How the results depend on the processing

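No paired analysis was possible because the series has 1 group. The count of 30 detected members ran from 20 (2 TPM) to 44 (0.5 TPM) over other thresholds, and was 27 by FPKM. With a single library it was 31 (without replicate 1) and 33 (without replicate 2). The 7 members called between libraries were called also with DESeq2 size factors, total counts, no minimum and a minimum of 30 counts, with 1 more under no minimum. The shares of all genes tested that were called were 7.81%, 7.8%, 6.68% and 6.64%, in that order. Spike-in scaling moved the median log2 ratio of detected genes to -0.61. Under it 21 of 75 tested members were called, a share above the 14.9% of all genes tested. Of these members 5 were higher in replicate 2 and 16 higher in replicate 1. Kcnn4 and Kcna3 lost their calls there, and Kcnk1 and Kcnt1, among the abundant members, gained one. At 1.5-fold 11 were called, against 14% of all genes tested, and 0 passed 2-fold on TPM + 1, against 0.872% of all genes. The ratios of Kcnj15, Kcnj16 and Kcnj1 turned to 0.747, 0.715 and 0.678 with spike-in scaling and to 0.926, 0.972 and 0.922 on TPM + 1. The causes were not tested beyond the scaling itself. The summed level was 515 in FPKM. Over complete coding transcripts only, chosen after seeing the data, it was 523 TPM and the 5 highest members held 71.7%. Low counts limit the ratios of the called members, 6 of which are below 1 TPM.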
